A study of Mus musculus with 10 samples.

Results

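Interferon-stimulated genes are the genes that cells switch on when an interferon binds its receptor, and 36 of them were followed here in adult mouse microglia, the resident macrophages of the brain. The 36 were taken by gene name from a list, out of 24033 gene names measured, and all 36 were found and exceeded the limit for low values (0.5 RPKM in at least 3 libraries), as did 13621 genes in all. The study asks what loss of the microglial lipid receptor Trem2 does, in a series on injury and tau pathology. The libraries described here come from C57BL/6 mice of 3 to 5 months with no injury or tau transgene named for them. There were 3 libraries of Trem2 knockout mice (TREM2-/-, written KO; library 6 female, 9 and 12 male), 3 of heterozygous mice (TREM2+/-, Het; 5 and 11 female, 8 male) and 4 of wild-type mice (TREM2+/+, WT; 4 and 7 male, 1 and 10 female). Nothing in the labels tells single mice and pools of mice apart. Every p-value sets a difference only against the spread among these libraries. Cells were pulled out by their CD11b, an integrin that monocytes and neutrophils also carry, using magnetic beads, and total RNA was amplified as cDNA before sequencing. In such bulk RNA, more cells that make a transcript and more transcript per cell cannot be told apart.

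Type I interferons bind the receptor pair IFNAR1 and IFNAR2, whose kinases JAK1 and TYK2 phosphorylate STAT2. With IRF9, STAT2 forms part of a complex that enters the nucleus and binds the interferon-stimulated response element, a short repeat in the promoters of interferon-stimulated genes. The products sense viral nucleic acid, block translation, degrade RNA, trap virions or tune the response itself. In the brain, microglia with high levels of these genes are known from infection, ageing and models of amyloid and tau pathology, while healthy adult microglia keep a low tonic level.

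The promoters are shown because the members are grouped by a shared response and the element is what many of them share in sequence. RefSeq promoter windows on GRCm38.p6, from 250 bases before to 50 after the start of transcription, were available for 26 of the 36 members. The repeat GAAANNGAA, searched on both strands with N as any base, was found in 15 of these 26 members (57.7%), against 9.76% of 27025 genes with a window. With a further A after the last base it was found in 14 members (53.8%), against 3.99% of genes. The gamma-activated site TTCNNNGAA, an element of genes that respond to interferon gamma, was found in 4 members (15.4%), against 9.55% of genes. A match describes letters in a window and shows no binding.

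Stretches of 120 bases from 6 members follow, each running 160 to 41 bases before the start, 5′ to 3′ on the strand of the gene, with matches to the repeat on either strand in capitals. They are Isg15 (chr4:156200859-156200978, minus strand), Ifit1 (chr19:34640729-34640848, plus), Ifit3 (chr19:34583369-34583488, plus), Oas3 (chr5:120777700-120777819, minus), Bst2 (chr8:71537513-71537632, minus) and Lgals3bp (chr11:118402000-118402119, minus). Isg15, Ifit1 and Ifit3 hold 3 matches each, and those of Isg15 overlap into 1 run. In Ifit1 and Ifit3 the matches lie on the opposite strand. Oas3 and Bst2 hold 2 overlapping matches, and in Bst2 a match to the gamma-activated site overlaps them. Lgals3bp, the member with the highest level in these cells, has no match in its window.
Isg15: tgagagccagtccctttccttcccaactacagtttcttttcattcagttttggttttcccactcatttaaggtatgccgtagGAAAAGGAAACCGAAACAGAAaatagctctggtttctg
Ifit1: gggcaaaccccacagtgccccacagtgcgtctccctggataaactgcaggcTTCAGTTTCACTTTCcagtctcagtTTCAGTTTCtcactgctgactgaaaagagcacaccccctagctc
Ifit3: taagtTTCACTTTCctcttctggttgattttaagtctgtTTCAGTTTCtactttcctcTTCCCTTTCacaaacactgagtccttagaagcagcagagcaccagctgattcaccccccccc
Oas3: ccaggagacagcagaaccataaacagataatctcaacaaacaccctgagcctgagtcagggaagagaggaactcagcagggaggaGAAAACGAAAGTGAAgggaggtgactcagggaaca
Bst2: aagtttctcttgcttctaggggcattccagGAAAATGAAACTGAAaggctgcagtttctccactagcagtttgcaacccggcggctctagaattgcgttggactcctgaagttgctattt
Lgals3bp: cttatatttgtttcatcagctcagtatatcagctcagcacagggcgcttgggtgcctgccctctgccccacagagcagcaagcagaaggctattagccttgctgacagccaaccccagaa

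Several members are also neighbours on a chromosome (GENCODE M21, GRCm38). Ifit1, Ifit2 and Ifit3 lie within a stretch of chromosome 19, Oas1a, Oas2 and Oas3 on chromosome 5 with Oas2 and Oas3 3.2 kb apart, Oasl1 and Oasl2 11.0 kb apart on the same chromosome, and Rsad2 and Cmpk2 12.8 kb apart on opposite strands of chromosome 12. Slfn2 and Slfn5, Gbp2 and Gbp3, and Mx1 and Mx2 are neighbours on chromosomes 11, 3 and 16. Apart from Rsad2 and Cmpk2, these neighbours belong to gene families that hold near copies. How the authors' counting treated reads shared between copies is not stated. Exons of 7 members overlap a gene on the opposite strand: Irf7 (Phrf1), Dhx58 (Dhx58os), Usp18 (Gm44148), Oasl1 (Gm13822), Slfn5 (Slfn5os), Gbp2 (Mir6381) and Ifi35 (Gm11626). No strand setting is stated, so such reads cannot be told apart. Exons of Irf9 (Rnf31), Herc6 (Gm45193), Parp14 (Gm49730) and Rtp4 (Gm45338) overlap a gene on their own strand.

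Reads recovered from the deposited values summed to 17.63 M to 22.53 M (M, megareads) in 6 libraries (KO 6, Het 5 and 8, WT 1, 4 and 7) and to 37.14 M to 45.09 M in the other 4. In the deeper 4, the 2 KO libraries are the 2 males, so that genotype and sex cannot be told apart there. Trem2 averaged 24.6 ± 3.52 RPKM in KO, 93.9 ± 9.98 in Het (SD, n = 3 each) and 191.5 ± 31.1 RPKM in WT libraries (n = 4), in the order of the labels. KO against WT it fell by 2.93 on the log2 scale (limma, adjusted p = 5.45e-06), and Het against WT it was 1.02 lower (a log2 difference of -1.021, limma, adjusted p = 0.238). The 10 microglia markers summed to between 9084 and 11060 RPKM in every library, P2ry12, a purinergic receptor gene of microglia, averaging 1967 RPKM. KO library 6 stood apart from the rest in markers of other blood cells, with values given below.

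Most of the 36 genes had their highest value in KO library 6 or WT library 10. Mean RPKM, which is scaled to gene length, ranged between 1.14 for Oas3 and 112.9 for Lgals3bp. Ranks between genes are approximate, since the annotation and the treatment of reads shared between copies are not stated. Of the 36, 13 averaged below 5 RPKM and 24 below 10 RPKM, counts that were not made over all genes. KO library 6 held the highest value of 20 of the 36 members, against 15.6% of all genes tested, and WT library 10 that of 12 members, against 5.8% of all genes. One or the other was highest for 32 members (88.9%), against 21.4% of all genes. For 22 members (61.1%, against 2.07% of all genes) these libraries took both the first and the second place. The 4 exceptions were Mx2 and Ifi44, highest in WT library 4, Parp14, highest in Het library 5, and Ifi35, highest in KO library 12.

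**Figure D1:**
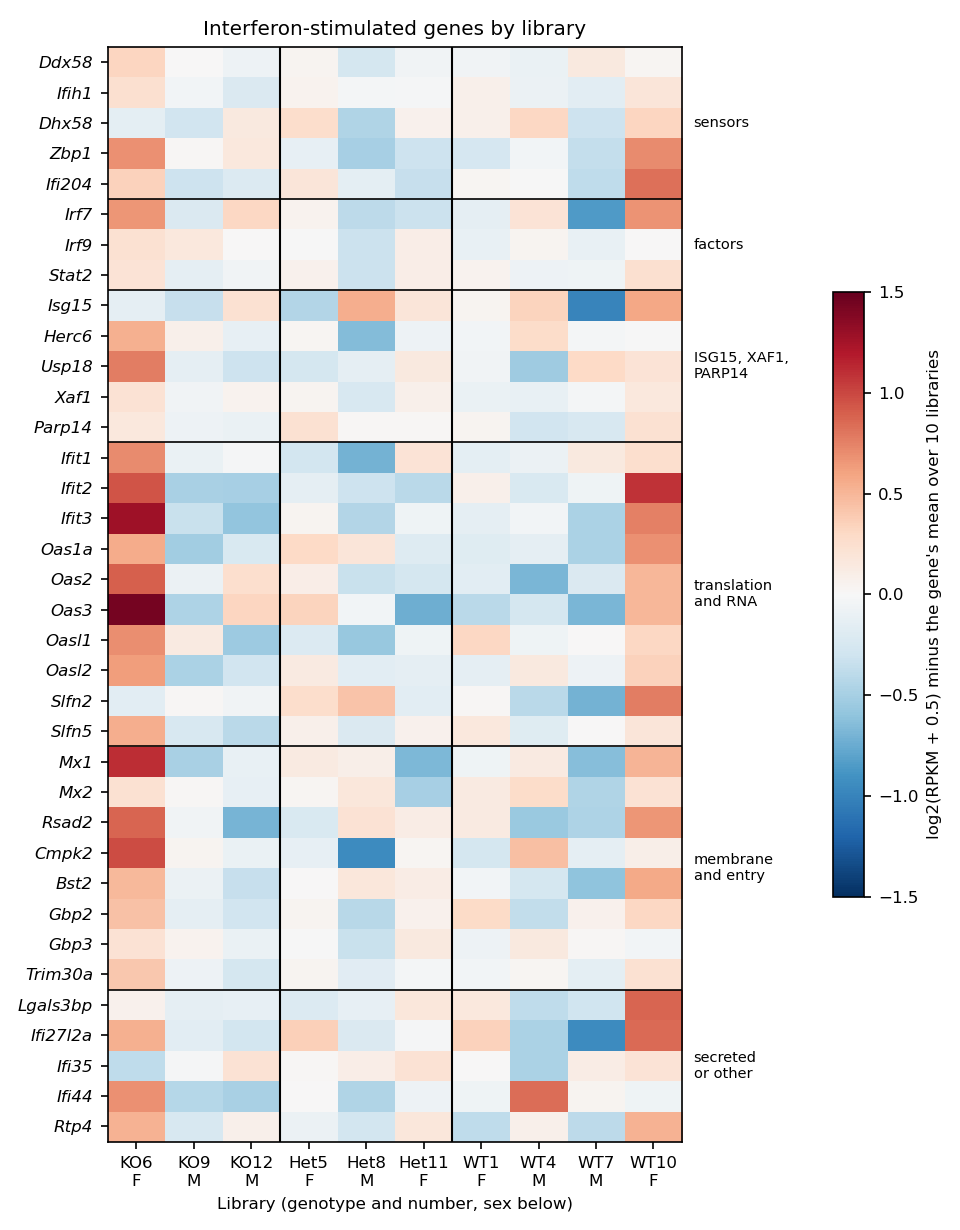
Log2(RPKM + 0.5) of each of the 36 members (rows, grouped by role) in each library (columns, KO then Het then WT, with the sex below), as the difference from the gene's mean over the 10 libraries; red is above and blue below that mean. KO library 6 and WT library 10 are red in most rows, with 32 and 33 of the 36 members above their own mean, and KO libraries 9 and 12 are mostly pale or blue, with 9 and 10.

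The median member lay 0.53 above its own mean in KO library 6 on the log2 scale, and 0.11 and 0.12 below it in KO libraries 9 and 12 (values of -0.112 and -0.117). In the Het libraries 5, 8 and 11 the median was 0.04, -0.23 and -0.02, and in the WT libraries 1, 4, 7 and 10 it was -0.04, -0.09, -0.18 and 0.32. The same median over all genes stayed between -0.057 and 0.027 in every library. Thus KO library 6 differed from the other KO libraries by a median of 0.61 over the members (32 of 36 higher), WT library 10 from the other WT libraries by 0.35 (33 of 36 higher), and KO library 6 from WT library 10 by 0.09 (22 of 36 higher). Both are female, and they fall in the shallower and the deeper set of libraries.

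**Figure D2:**
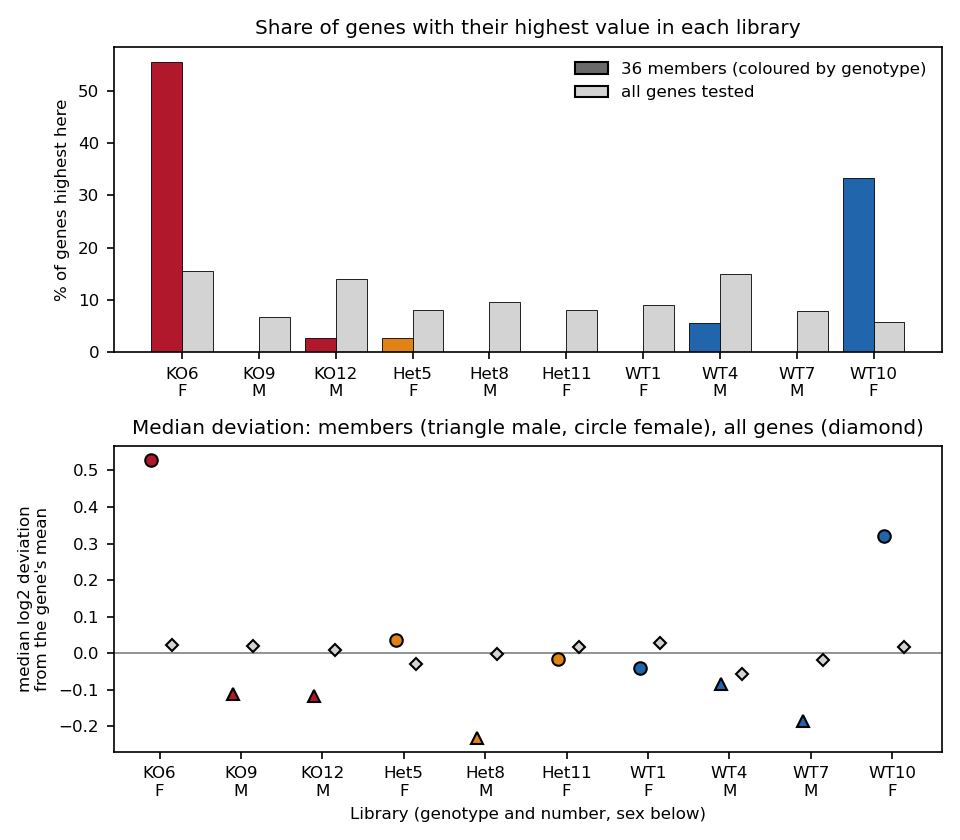
Upper panel, share of the 36 members (coloured bars) and of all genes tested (grey bars) whose highest value lies in each library; lower panel, the median log2 deviation from the gene's own mean over the members (triangle male, circle female) and over all genes (diamond). KO library 6 holds 55.6% and WT library 10 33.3% of the members' highest values, and the 5 male libraries lie below the 5 female ones in the lower panel.

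The sensors detect foreign or misplaced nucleic acid in the cytosol. Ddx58, which encodes the RNA sensor RIG-I, was at 20.3, 16.2 and 15.3 RPKM in the KO libraries 6, 9 and 12, at 16.5, 13.3 and 15.5 RPKM in the Het libraries 5, 8 and 11, and at 15.5, 15.0, 17.9 and 16.5 RPKM in the WT libraries 1, 4, 7 and 10; below, values keep this order of libraries. Ifih1, which encodes the RNA sensor MDA5, was at 15.3, 12.5 and 11.1 RPKM in KO, 13.5, 12.7 and 12.8 RPKM in Het, and 13.6, 12.1, 11.6 and 14.7 RPKM in WT libraries. Both sensors were highest in KO library 6, and their genotype groups overlapped. Zbp1, a sensor of Z-form nucleic acid that can start necroptosis, was at 3.71, 2.15 and 2.44 RPKM in KO, 1.90, 1.36 and 1.62 RPKM in Het, and 1.70, 2.05, 1.55 and 3.80 RPKM in WT libraries. All 3 KO values of Zbp1 lay above all 3 Het values, while WT library 10 lay above every KO library. Dhx58, which encodes the regulatory helicase LGP2, averaged 4.84 RPKM over the 10 libraries, and Ifi204, a DNA-binding member of the IFI200 family, averaged 10.6 RPKM with 18.6 RPKM in WT library 10.

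Among the factors that carry the interferon signal, Irf9 was at 22.7, 21.6 and 19.3 RPKM in KO, 19.2, 15.3 and 20.6 RPKM in Het, and 17.7, 19.8, 17.7 and 19.3 RPKM in WT libraries. Stat2 was at 17.8, 14.1 and 14.9 RPKM in KO, 16.2, 12.2 and 16.5 RPKM in Het, and 16.0, 14.6, 14.7 and 18.4 RPKM in WT libraries. For Irf9 and for Stat2 the values of the 3 genotypes overlapped. Irf7, the factor that amplifies type I interferon, averaged 3.33 ± 1.12 RPKM in KO, 2.19 ± 0.473 in Het (SD, n = 3 each) and 2.78 ± 1.36 RPKM in WT libraries (n = 4), and was 4.43 RPKM in KO library 6 and 4.46 RPKM in WT library 10.

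Isg15, a ubiquitin-like protein that is joined to other proteins, lay below its own mean of 1.74 RPKM in KO library 6, in contrast to most members. It was at 1.44, 1.18 and 2.01 RPKM in KO, 1.07, 2.63 and 1.92 RPKM in Het, and 1.70, 2.19, 0.573 and 2.70 RPKM in WT libraries, and the 3 groups overlapped. These values rest on 8 reads in the lowest library and 92 in the highest. Herc6, the main mouse ligase for ISG15, was at 23.5, 16.9 and 14.7 RPKM in KO, 16.4, 10.0 and 15.2 RPKM in Het, and 15.6, 19.5, 15.8 and 16.0 RPKM in WT libraries. Usp18, which removes ISG15 and damps the interferon receptor, averaged 3.91 ± 1.90 RPKM in KO, 3.17 ± 0.551 in Het (SD, n = 3 each) and 3.40 ± 0.922 RPKM in WT libraries (n = 4). Usp18 was at 6.08 RPKM in KO library 6, and its KO mean without that library was 2.82 RPKM, below the WT mean. Of 2 members outside the ISG15 system, Parp14, a mono-ADP-ribosyltransferase, was at 22.3, 19.1 and 18.7 RPKM in KO, 23.6, 20.3 and 20.4 RPKM in Het, and 20.7, 16.3, 17.0 and 23.5 RPKM in WT libraries. Xaf1, which binds the apoptosis inhibitor XIAP, averaged 7.58 RPKM and kept to between 6.31 and 8.83 RPKM.

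The members that act on RNA and translation had the widest range of medians over the libraries among the roles. Their median deviation from the gene's mean was 0.70 in KO library 6 and 0.50 in WT library 10 on the log2 scale, and -0.29 and -0.26 in KO libraries 9 and 12. Oas2, 1 of the oligoadenylate synthetases, which are activated by double-stranded RNA, was at 9.61, 4.60 and 5.99 RPKM in KO, 5.32, 3.80 and 4.03 RPKM in Het, and 4.37, 2.89, 4.18 and 7.16 RPKM in WT libraries. Its KO values lay above those of WT libraries 1, 4 and 7 and, apart from library 6, below WT library 10. Oas3, of the same family, was at 3.50, 0.573 and 1.35 RPKM in KO, 1.35, 0.938 and 0.388 RPKM in Het, and 0.611, 0.724, 0.413 and 1.58 RPKM in WT libraries. KO library 6 was 2.21 times the next highest library for Oas3, the largest such ratio among the members, on 337 reads in that library and 36 in the lowest.

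Ifit1, which binds RNA caps that lack a methyl group and blocks their translation, was at 8.30, 4.53 and 4.81 RPKM in KO, 3.96, 2.80 and 5.69 RPKM in Het, and 4.37, 4.55, 5.46 and 5.90 RPKM in WT libraries. Ifit3, its partner protein, was at 13.5, 4.08 and 3.31 RPKM in KO, 5.44, 3.75 and 5.00 RPKM in Het, and 4.73, 5.10, 3.66 and 9.21 RPKM in WT libraries. Both were highest in KO library 6, while KO libraries 9 and 12 lay within the range of WT libraries for Ifit1 and on both sides of the lowest WT value for Ifit3. Without library 6 the KO mean of Ifit3 was 3.70 RPKM, against 6.95 RPKM with it and 5.68 RPKM in WT libraries. Ifit2 averaged 4.61 ± 3.21 RPKM in KO, 3.27 ± 0.366 in Het (SD, n = 3 each) and 5.20 ± 2.69 RPKM in WT libraries (n = 4).

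Oasl2, a relative of the synthetases, was at 30.3, 13.8 and 15.7 RPKM in KO, 21.3, 17.3 and 17.6 RPKM in Het, and 17.5, 21.5, 18.3 and 24.8 RPKM in WT libraries, so that KO held both its highest and its lowest values. Oasl1, which represses translation of Irf7 mRNA in mice, was at 3.51, 2.21 and 1.19 RPKM in KO, 1.66, 1.18 and 1.86 RPKM in Het, and 2.57, 1.86, 1.99 and 2.58 RPKM in WT libraries. The highest Het value and the lowest WT value of Oasl1 were equal at this precision. Slfn5, a Schlafen family member, was at 17.6, 9.97 and 8.87 RPKM in KO, 12.5, 10.1 and 12.5 RPKM in Het, and 13.4, 10.4, 12.0 and 13.5 RPKM in WT libraries. Oas1a, with a mean of 1.75 RPKM, and Slfn2, with 5.24 RPKM, were highest in WT library 10, and Slfn2 was 4.45 RPKM in KO library 6, its lowest KO value.

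Trim30a, a mouse ubiquitin ligase of the TRIM family, was the second most abundant member and was at 46.7, 33.3 and 29.2 RPKM in KO, 36.1, 31.1 and 34.4 RPKM in Het, and 34.2, 35.7, 31.7 and 41.1 RPKM in WT libraries. Bst2, also called tetherin, which holds budding virions at the membrane, was at 17.9, 11.8 and 9.81 RPKM in KO, 12.7, 14.3 and 13.6 RPKM in Het, and 12.3, 10.4, 8.13 and 19.0 RPKM in WT libraries. Both had their 2 highest values in KO library 6 and WT library 10. Mx1, a dynamin-like GTPase that is not functional in C57BL/6 mice, was at 11.3, 3.39 and 4.54 RPKM in KO, 5.51, 5.32 and 2.93 RPKM in Het, and 4.73, 5.48, 3.01 and 7.29 RPKM in WT libraries. Its mean without library 6 was 3.96 RPKM in KO, against 5.13 RPKM in WT libraries.

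Cmpk2, a nucleotide kinase that is a neighbour of Rsad2, was at 4.90, 2.32 and 2.06 RPKM in KO, 2.02, 0.925 and 2.31 RPKM in Het, and 1.80, 3.26, 2.01 and 2.42 RPKM in WT libraries. Rsad2 itself, which encodes the antiviral enzyme viperin, averaged 4.85 ± 2.94 RPKM in KO, 4.37 ± 0.764 in Het (SD, n = 3 each) and 4.32 ± 1.97 RPKM in WT libraries (n = 4). Rsad2 was highest in KO library 6, at 8.11 RPKM, and its KO mean without that library was 3.225 RPKM. Rsad2 reached 6.97 RPKM in WT library 10, above the other WT libraries, whereas Cmpk2 lay within their range there. The remaining members of this role, Mx2 and the guanylate-binding proteins Gbp2 and Gbp3, averaged 7.92, 5.75 and 9.31 RPKM.

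Lgals3bp, a secreted glycoprotein that binds galectins, was at 114.5, 99.6 and 100.2 RPKM in KO, 95.3, 100.1 and 123.7 RPKM in Het, and 122.5, 83.9, 88.7 and 200.8 RPKM in WT libraries. A single library, WT 10, was 1.62 times the next highest, and the WT mean was 98.4 RPKM without it, against 124.0 RPKM with it and 104.8 RPKM in KO libraries. Rtp4, a chaperone of G protein-coupled receptors, was at 12.7, 7.27 and 9.17 RPKM in KO, 8.15, 7.10 and 9.81 RPKM in Het, and 6.55, 9.18, 6.48 and 12.7 RPKM in WT libraries, the same value in KO library 6 and WT library 10 at this precision. Ifi27l2a, Ifi35 and Ifi44, whose functions are less well described, averaged 4.39, 8.11 and 3.08 RPKM.

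**Figure D3:**
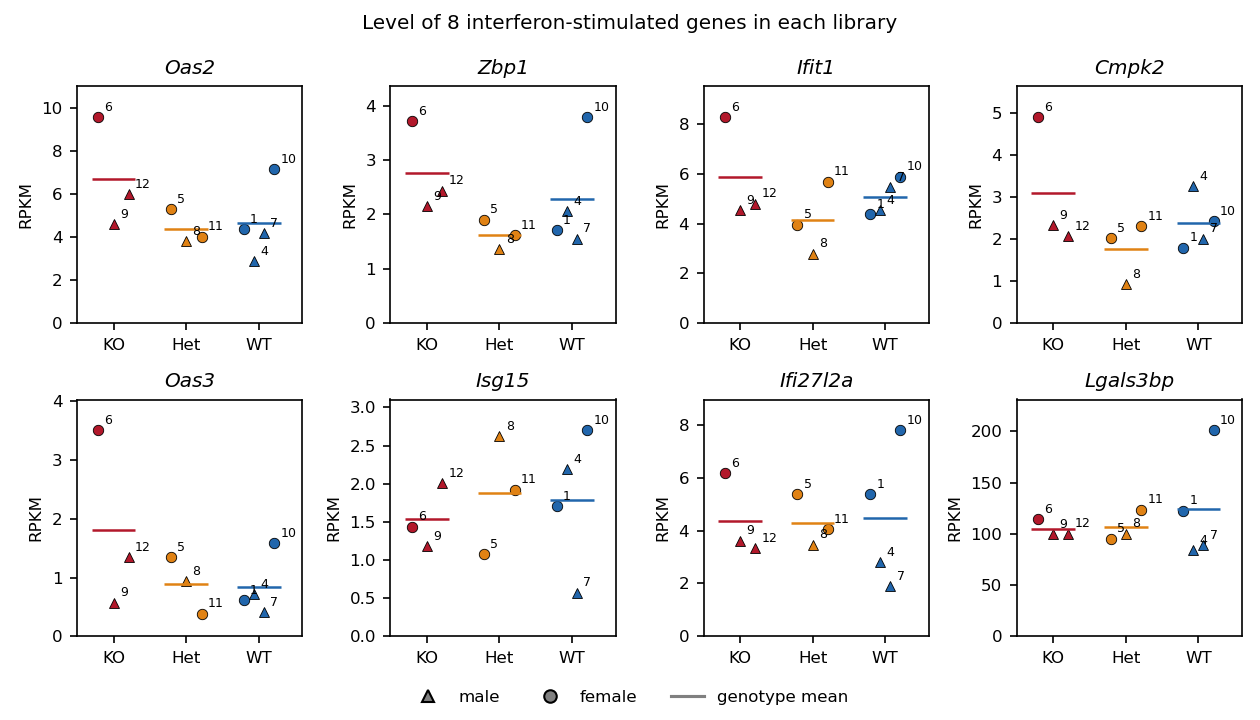
RPKM of 8 members in each library, by genotype (KO, Het, WT), with triangles for male and circles for female libraries, the library number beside each point and a line at the genotype mean. Library 6 lies far above the other KO libraries for Oas2, Zbp1, Ifit1, Cmpk2 and Oas3, whereas Isg15 has KO library 6 at 1.44 RPKM, below KO library 12, and Lgals3bp is set apart by WT library 10 at 200.8 RPKM.

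With KO set against WT libraries, no member was called. All differences are from limma on log2(RPKM + 0.5) with genotype and sex in 1 model, and a call is an adjusted p under 0.05 over all 13621 genes. In this comparison 0.00734% of all genes were called, a single gene, Trem2. The median member was 0.09 higher on the log2 scale, and 27 of 36 differences were positive, beside a median of 0.03 and 57.2% positive over all genes. At an unadjusted p under 0.05, 1 member was higher, Oas2, beside 3.32% of all genes. Oas2 differed by 0.59 (SE 0.21, 95% interval 0.12 to 1.06, limma, adjusted p = 0.942), and by 0.46 without KO library 6. No member had all KO values above all WT values, beside 2.99% of all genes. Without KO library 6 the median over the members was 0.01 and 20 of 36 differences were positive. Over all genes that fit gave 0.038 and 57.0% positive. Neutrophil and monocyte markers were also higher in KO than in WT libraries, with values given below.

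The KO and WT libraries were also compared within each sex. Among males, 2 KO against 2 WT libraries, the median member difference was -0.03, with 16 of 36 positive, beside 0.05 over all genes. Among females, 1 KO library (library 6) against 2 WT libraries, it was 0.32, with 29 of 36 positive, beside 0.00 (0.003) over all genes. The difference between the sexes was tested gene by gene with an interaction term in limma, and no member was called (limma, smallest adjusted p = 0.202), beside 2 of 13621 genes or 0.0147%. At an unadjusted p under 0.05 there were 8 of 36 members (22.2%), beside 14.9% of all genes. The female side of that term rests on library 6 alone.

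In the comparison of Het with WT libraries, 0 members and 0% of all genes were called. The median member was -0.13 on the log2 scale and 30 of 36 differences were negative, beside a median of 0.00 (0.001) and 49.7% negative over all genes. At an unadjusted p under 0.05, 1 member was lower, Oasl1, beside 1.35% of all genes. Oasl1 differed by -0.51 (SE 0.21, 95% interval -0.97 to -0.04, limma, adjusted p = 1.00), and Ifit2, with the largest estimate, by -0.62 (SE 0.29). No member had all Het values below all WT values, beside 2.3% of all genes. Without KO 6 and WT 10 the median was -0.03 and 14 of 36 differences were positive, beside 0.001 and 50.32% over all genes.

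Between KO and Het libraries, again 0 members were called, beside 0.00734% of all genes, which is Trem2. The median member was 0.21 higher in KO on the log2 scale, with 31 of 36 positive, beside 0.03 and 57.1% over all genes. At an unadjusted p under 0.05, 6 of 36 members were higher, beside 2.2% of all genes, and each had an adjusted p of 0.999 in limma. Their differences were 0.80 for Cmpk2 (SE 0.31), 0.74 for Zbp1 (SE 0.26), 0.71 for Oas2 (SE 0.23), 0.60 for Ifit1 (SE 0.23), 0.55 for Oasl1 (SE 0.23) and 0.49 for Herc6 (SE 0.19). Without KO library 6 they were 0.46, 0.64, 0.56, 0.39, 0.32 and 0.32, and no member then had an unadjusted p under 0.05. Of 13506 genes, 327 were then higher and 166 lower at that threshold. Zbp1 was the 1 member with all KO values above all Het values, beside 4.4% of all genes. Among males the median member difference between KO and Het was -0.001, and among females, again with library 6 as the only KO library, 0.47. Over all genes these medians were 0.018 and 0.019. The KO libraries serve in both KO comparisons and the WT libraries in both WT comparisons, so the 3 comparisons are not independent.

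**Figure D4:**
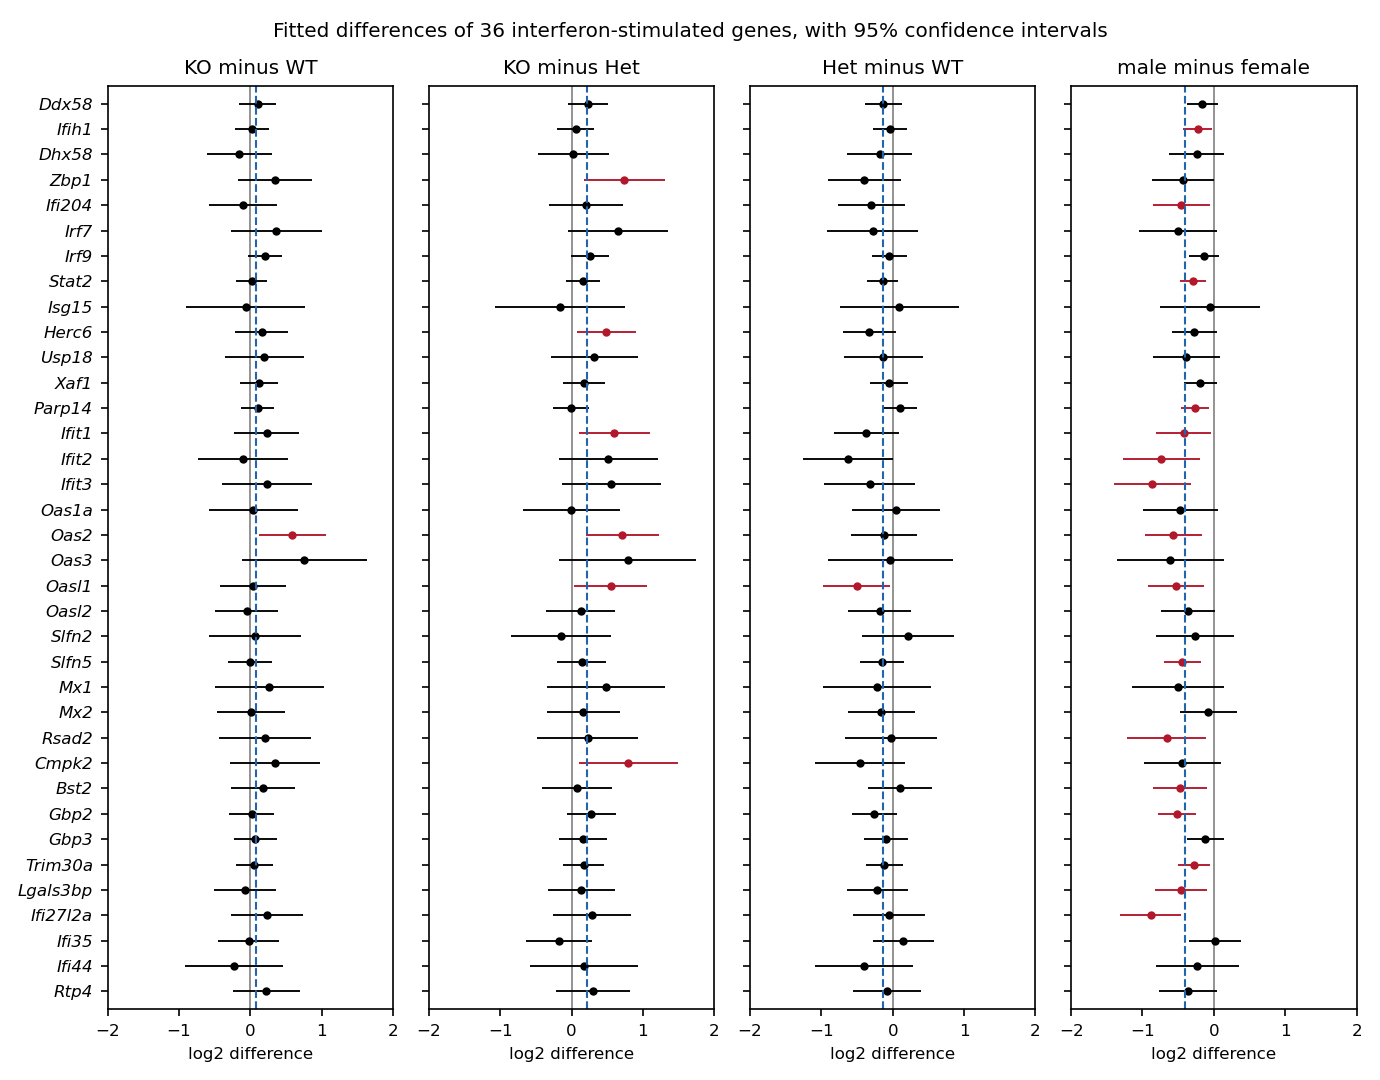
Fitted log2 differences of the 36 members with 95% confidence intervals, for KO minus WT, KO minus Het, Het minus WT and male minus female; red marks an unadjusted p under 0.05 and the dashed line the median of the members. The red points number 1, 6, 1 and 16 in the 4 panels, and in the male minus female panel 35 of 36 estimates lie below 0.

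More members reached an unadjusted p under 0.05 between the sexes than in any genotype comparison, though none was called. The comparisons are not equally precise, since that of the sexes has 5 libraries on each side. For Ifit3 the SE was 0.244 there, 0.288 in KO against WT and 0.315 in KO against Het. In male against female libraries 0 members and 0.044% of all genes passed the adjusted threshold. The median member was 0.41 lower in males (a log2 difference of -0.406), 35 of 36 differences were negative, and the exception, Ifi35, stood at 0.01, beside a median of -0.03 and 56.7% negative over all genes. At an unadjusted p under 0.05, 16 members were lower in males, beside 3.51% of all genes. The smallest p was that of Ifi27l2a, which averaged 3.03 ± 0.698 RPKM in males and 5.75 ± 1.36 RPKM in females (SD, n = 5 each), a log2 difference of -0.88 (SE 0.19, limma, adjusted p = 0.902). Gbp2 averaged 4.78 ± 0.742 RPKM in males and 6.72 ± 0.848 RPKM in females (-0.51, SE 0.12, limma, adjusted p = 0.919), and Ifit3 3.98 ± 0.685 RPKM in males and 7.57 ± 3.76 RPKM in females (-0.86, SE 0.24, limma, adjusted p = 0.919).

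There were 5 members that had every male value below every female value, Ifih1, Stat2, Parp14, Slfn5 and Ifi27l2a, beside 0.565% of all genes. Of these, Stat2 averaged 14.1 ± 1.08 RPKM in males and 17.0 ± 1.05 RPKM in females (SD, n = 5 each), and Parp14 18.3 ± 1.61 RPKM in males and 22.1 ± 1.52 RPKM in females. The male minus female median over the members was -0.61 within KO, -0.26 within Het and -0.31 within WT libraries, where it rests on 1 to 2 libraries of each sex. Over all genes these medians were -0.008, 0.003 and -0.062. The value within KO is the contrast of library 6 with the other KO libraries given above, with its sign turned. The values within genotypes are plain differences of means, as are -0.31 in the shallower libraries, with 34 of 36 negative, and -0.28 in the deeper ones, with 32 negative. Over all genes the shallower libraries gave -0.036 with 57.1% negative, and the deeper ones 0.003 with 49.4% negative. In both depth sets sex goes with genotype: the only KO library of the shallower set, library 6, is female, and in the deeper set the males are KO and the females are not. With genotype in the model, the shallower libraries gave -0.15, with 4 of 36 positive, beside -0.03 and 44.1% positive over all genes. In the model without KO 6 and WT 10, both female, the member median was -0.14, with 30 members negative and 3 at an unadjusted p under 0.05. Over all genes that model gave a median of -0.032 with 42.48% positive. Of 13389 genes, 104 were higher and 235 lower in males at the same threshold. The labels name no preparation batch, and whether the male and female libraries were prepared together was not tested.

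Genes that make, receive and damp the interferon signal were set beside the members. Of 11 interferon genes looked up, Ifna1, Ifna4, Ifne, Ifnl2 and Ifnl3 were listed at 0 in every library. Only Ifnb1 and Ifnk passed the limit for low values, and Ifnb1, the main type I interferon of myeloid cells, averaged 1.13 ± 0.376 RPKM in KO, 0.682 ± 0.380 in Het (SD, n = 3 each) and 0.940 ± 0.672 RPKM in WT libraries (n = 4). Ifnb1 was highest in WT library 10, at 1.84 RPKM, and was 1.21 RPKM in KO library 6, below the 1.45 RPKM of KO library 12. Between the sexes Ifnb1 differed by -0.71 in males against females on the log2 scale (SE 0.24, limma, adjusted p = 0.919), and between KO and Het by 0.72 (SE 0.31, limma, adjusted p = 0.999).

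The list of receptors and kinases was led in level by Ifngr1. Ifngr1, a chain of the interferon gamma receptor, averaged 171.0 ± 14.9 RPKM in KO, 175.4 ± 13.6 in Het (SD, n = 3 each) and 161.6 ± 9.51 RPKM in WT libraries (n = 4). Of the 11 genes of this list, 10 passed the limit for low values, and none was called in any comparison.

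Of 12 negative regulators 11 passed the limit, and none was called. Socs3, an inhibitor of JAK kinases and the most abundant of them, averaged 85.4 ± 32.0 RPKM in KO, 92.2 ± 15.5 in Het (SD, n = 3 each) and 80.9 ± 9.23 RPKM in WT libraries (n = 4), and was lowest, at 55.4 RPKM, in KO library 6. In males against females Socs3 differed by 0.39 (SE 0.15) and Nlrc5, an interferon-induced regulator of MHC class I, by -0.42 (SE 0.18), both with an adjusted p of 0.919 in limma. Ptpn11, a phosphatase, differed by 0.30 in Het against WT (SE 0.13, limma, adjusted p = 1.00).

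Among 16 measured genes that induce interferon, none was called. Tlr7, the endosomal receptor for single-stranded RNA, was the most abundant and averaged 218.5 ± 29.5 RPKM in KO, 209.7 ± 23.7 in Het (SD, n = 3 each) and 226.9 ± 43.0 RPKM in WT libraries (n = 4). KO against WT, Tlr9, the receptor for CpG DNA, differed by -0.28 (SE 0.12) and Irf3, the factor that starts type I interferon transcription, by 0.35 (SE 0.15), each with an adjusted p of 0.969 in limma. Ikbke, a kinase of IRF3, differed by -0.55 in males against females (SE 0.24, limma, adjusted p = 0.919).

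A further list held interferon-stimulated genes outside the 36. Of 52 such genes in the files 45 passed the limit for low values, and 0 were called in any comparison. KO against WT their median was 0.12 with 33 of 45 positive, Het against WT -0.07 with 15 positive, KO against Het 0.17 with 40 positive, and males against females -0.19 with 7 positive. Over all genes the medians were 0.03, 0.00 (0.001), 0.03 and -0.03 in the same order, with 57.2%, 50.3%, 57.1% and 43.3% positive. KO library 6 enters both KO comparisons, and values of this list without it are not given here. At an unadjusted p under 0.05, 7 of 45 were higher in KO than in WT (3.32% of all genes), 2 lower in Het than in WT (1.35%), 9 higher in KO than in Het (2.2%) and 8 lower in males (3.51%). The most abundant, the chemokine gene Ccl12, averaged 204.3 ± 29.97 RPKM in KO, 193.6 ± 27.3 in Het (SD, n = 3 each) and 209.6 ± 22.5 RPKM in WT libraries (n = 4).

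The largest KO against WT estimates among these genes were those of Slfn4 and Slfn1, 2 further Schlafen family genes. Slfn4 was at 6.76, 0.954 and 0.905 RPKM in KO, 1.38, 0.888 and 0.667 RPKM in Het, and 0.280, 0.345, 0.411 and 0.650 RPKM in WT libraries, a log2 difference of 1.56 in KO against WT (SE 0.43, limma, adjusted p = 0.913). Slfn1 differed by 1.18 (SE 0.31, limma, adjusted p = 0.913), and its 3.04 RPKM in KO library 6 stood above every other library. The other 5 at an unadjusted p under 0.05 in KO against WT were Isg20 (0.56), Ifi47 (0.52), Iigp1 (0.47), Samd9l (0.41) and Dtx3l (0.29, all log2 differences). In KO against Het the 9 were Samd9l (0.69), Iigp1 (0.655), Phf11b (0.55), Isg20 (0.55), Slfn9 (0.54), Ube2l6 (0.47), Igtp (0.32), Dtx3l (0.26) and Slfn8 (0.245). In Het against WT they were the guanylate-binding genes Gbp4 (-0.46) and Gbp9 (-0.28). In males against females the 8 were Slfn1 (-0.995), Iigp1 (-0.565), Sp100 (-0.42), Phf11b (-0.40), Samd9l (-0.38), Eif2ak2, which encodes the RNA-activated kinase PKR (-0.36), Parp12 (-0.29) and Dtx3l (-0.29).

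Markers of 2 other CD11b-positive cell types were higher in KO libraries, most of all in library 6. The 11 neutrophil markers in the files summed to 2263 RPKM there and to 365.2 and 377.8 RPKM in KO libraries 9 and 12, against 141.8 to 353.9 RPKM in Het and 102.1 to 216.4 RPKM in WT libraries. All 11 were highest in KO library 6, and 10 of the 11 were above 0 in every library. S100a9, a neutrophil calprotectin subunit, was at 1040 RPKM in KO library 6 and at 133.9 and 134.5 RPKM in KO libraries 9 and 12. The 11 monocyte markers summed to 149.1 RPKM in KO library 6 and to 60.4 and 63.8 RPKM in KO libraries 9 and 12, against 49.4 to 60.6 RPKM in Het and 44.8 to 58.7 RPKM in WT libraries, with 8 of 11 highest in KO library 6. Of the sum in KO library 6, the marker Chil3 alone made up 76.6 RPKM. Ccr2, S100a4 and Ace, at 7.49, 2.08 and 4.19 RPKM there, were instead lower than in KO libraries 9 and 12. The neutrophil sums of KO libraries 9 and 12 also lay above those of every Het and WT library. KO against WT, all 9 neutrophil markers tested were higher at an unadjusted p under 0.05 (median log2 difference 2.09) and 6 of 10 monocyte markers (0.86), but none was called (limma, smallest adjusted p = 0.631 and 0.913). KO against Het it was 8 of 9 (1.56) and 5 of 10 (0.53). The part of these markers in the KO comparisons and in the member values of KO library 6 was not tested. In WT library 10, where the members were also high, the neutrophil markers summed to 210.4 RPKM and the monocyte markers to 51.8 RPKM, within the range of the other WT libraries, and none of these markers was highest there.

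**Figure D5:**
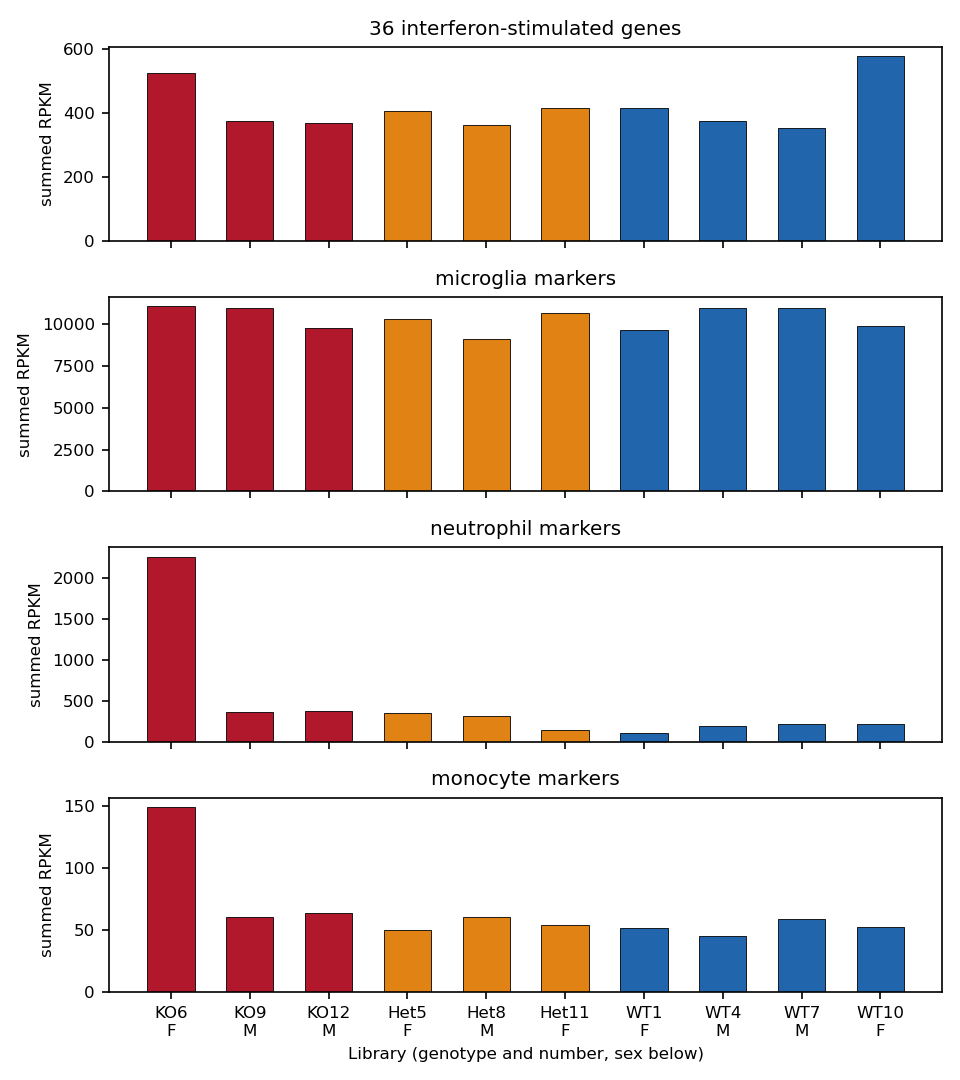
Summed RPKM per library of the 36 interferon-stimulated genes and of the microglia, neutrophil and monocyte markers (from top to bottom, each axis starting at 0; KO, Het and WT libraries from left to right, sex below). The member sum is 526.6 RPKM in KO library 6 and 577.6 RPKM in WT library 10, against 352.4 to 416.2 RPKM elsewhere, while the neutrophil sum of 2263 RPKM sets KO library 6 alone apart.

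Sums over markers of other cells were as follows. Summed border macrophage markers were 117.3 RPKM in KO library 6 and 168.3 RPKM in WT library 10, within 112.4 to 218.1 RPKM over all libraries. T and NK cell markers summed to at most 2.92 RPKM and B cell markers to at most 7.05 RPKM, both highest in WT library 10, with the B cell gene Pax5 at 0 in every library. Endothelial markers summed to 275.4 RPKM in KO library 6 and 156.6 RPKM in WT library 10, the second highest and the lowest of all libraries.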

How the data were processed

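RNA of 10 libraries (3 KO, 3 Het, 4 WT; 5 of each sex) was measured. The deposited values, 1 per gene and library, were taken as RPKM (reads per kilobase of gene and per megaread of the library): the file headers name no unit, and the values step in whole reads scaled by a gene length and a library total. STAR, HTSeq, edgeR, limma and the build mm10 are named, per the submitters' processing notes. The strand setting, the annotation, tool versions and tool order were not given in the sources used here. Cells were taken with CD11b beads, RNA with a column kit and libraries with the Ovation RNA-seq system v2, per the labels' protocols. Each file holds 24060 names; 27 had been turned into dates by a spreadsheet and were left out. In 20006 of the 20008 genes above 0 the values were found to be whole multiples of 1 read in every library, within 0.002 reads (largest deviation 8.04e-05), so reads were recovered to give depth, 17.63 to 45.09 megareads per library. Values of a deeper library rest on more reads, and low members such as Isg15 on few.

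Values were compared as log2(RPKM + 0.5), which understates the fold of low genes, over the 13621 genes that reached 0.5 RPKM in 3 or more libraries. A single linear model of all 10 libraries held genotype and sex (limma 3.58.1 with a mean-variance trend, R 4.3.3), two-sided, with Benjamini-Hochberg adjustment over all 13621 genes in each contrast. The procedure was tested on simulated data. The simulation gave every gene the same relative spread beyond counting, with no sex difference and no outlying library. It therefore cannot show whether differences like those of the members would be called. Other pseudocounts, filters, scalings, weights, a depth term, limma-voom on recovered reads and sets of libraries were tried as alternatives. Levels are mean ± SD. No test was run on the list itself: its counts and medians stand beside those of all genes.

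The members and lists were chosen with earlier results of these data known. Values in every library are given for the 2 members with the highest mean in each role, those with an unadjusted p under 0.05 in a genotype contrast, the 5 with the largest ratio of highest to second library, and Isg15; from each pathway list, the most abundant gene is named and those at an unadjusted p under 0.05, except 1 gene whose result is not reported here. Coordinates are from GENCODE M21 on GRCm38, the assembly that mm10 denotes, and promoters from RefSeq. Figures were drawn with matplotlib 3.10.9.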

Additional observations from a re-analysis of the deposited data

Results flagged for a closer look

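Each member was checked for a WT library far from the other 3, since WT is the only group of 4, and 3 of 36 members had one. Chance alone gives about 1 in 20, and the same check was not run over all genes. Herc6 was 19.5 RPKM in WT library 4, and the next highest WT library had 15.9 RPKM, a gap of 0.908 of the whole range. Ifit2 was 9.2 RPKM in WT library 10, the next being 4.33 RPKM (0.84 of the range). Ifi44 was 5.6 RPKM in WT library 4, the next being 3.02 RPKM (0.914 of the range). These gaps exceed Dixon's critical value for 4 samples at 95%. Groups of 3 were not checked, so the KO library 6 values of Oas3, Ifit3 and Mx1 could not be marked in this way.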

How the results depend on the processing

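No paired analysis was possible because the labels give every library its own number and name no batch or litter. No member was called in any comparison under any alternative run (23 for each genotype comparison, 20 for sex), the smallest adjusted p of a member being 0.297, 0.368, 0.486 and 0.378 for KO against WT, Het against WT, KO against Het and males against females. The median member difference in KO against WT, 0.086 with all libraries, was 0.374 in the 6 shallower libraries, where KO is library 6 alone, and -0.034 among males. In males against females, -0.406 with all libraries, it was -0.137 without KO 6 and WT 10 and -0.151 in the shallower libraries; the cause was not tested. Leaving out each library in turn gave medians of 0.007 to 0.137 in KO against WT (0.007 without KO 6), -0.277 to -0.09 in Het against WT, 0.113 to 0.337 in KO against Het (0.113 without KO 6) and -0.501 to -0.276 in males against females (-0.276 without KO 6). Over all genes in KO against WT, where the RPKM model of all libraries called 1 gene (lower), limma-voom on recovered reads and sample quality weights each called 2 lower, a depth term 1 higher and 1 lower, 3 lower were called without KO 6, 1 higher and 2 lower without KO 6 and WT 10 and likewise among males, 5 higher and 1 lower among females, and 10 higher and 1 lower in the shallower libraries. Het against WT (0 with all libraries) gave 1 lower with limma-voom and 3 higher and 5 lower among males; KO against Het (1 lower) gave 1 higher and 1 lower with a depth term, 3 higher in the shallower libraries and 0 among females. Where a group was left with 1 library (KO among females, Het among males), that library is assumed to vary like the others. No model without the sex term could give the sex comparison. The subsets by sex and depth and the removal of KO 6 and WT 10 were chosen after seeing the data. With 8 to 92 reads, Isg15 can show only large differences.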
